A study of Mus musculus with 2 samples.

Results

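Wide domains of the histone mark H3R17me2a were examined in mouse heart. A domain was a peak of at least 2000 bp in the first of the deposited peak lists that overlapped, by at least 1 bp, a peak of at least 2000 bp in the second list. On chromosomes 1 to 19 the rule chose 351 list 1 peaks, which met 349 list 2 peaks, out of 21497 peaks in list 1 and 38012 in list 2 as a whole. They made up 1.705% of the 20591 list 1 peaks that overlapped any list 2 peak, called shared peaks here, and the remaining 20240 are called the other shared peaks. Width chose the domains, so widths are given as a description only. The deposited fold enrichment and the reads at the summit come from the same peak calls and are also given without a test.

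The series holds 2 samples in 1 group, wild-type heart at postnatal day 21, and it belongs to work on cardiac maturation and the arginine methyltransferase Carm1. Chromatin immunoprecipitation followed by sequencing (ChIP-seq) recovers DNA bound to histones that carry a mark, and peaks are stretches with more such DNA than the background. No input or mutant sample was analysed here. Both titles carry the name carm1 beside a wild-type genotype label, and nothing in the labels says that the hearts were from separate animals. The tissue label and the protocol describe whole frozen heart, whereas the source label names cardiac fibroblasts and the series design speaks of neonatal hearts. The protocol names H3R17me2 as the target of the antibody, and the asymmetric form H3R17me2a is named in the series design.

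Carm1, also called Prmt4, is an arginine methyltransferase that is recruited by DNA-binding factors as a coactivator and adds asymmetric dimethyl groups to arginine 17 of histone H3. The mark is generally found at active promoters and enhancers. For other active marks, unusually wide domains are known over genes that define the identity of a cell, whereas most active promoters carry narrow peaks. The heart muscle cell is defined by its sarcomeres, the repeated units of thick and thin filaments that shorten when calcium is released from the sarcoplasmic reticulum.

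Promoter sequences of 6 coding genes are shown because their starts lay inside a wide domain in both lists, and because their CpG content runs from low to high. Each runs from 250 bases before the start to 50 after it, on the strand of the gene, and is taken from RefSeq with the GRCm38.p6 build. Capitals mark matches to TATAAA, to GGGCGG or its reverse complement CCGCCC, and to the CArG box, the site bound by serum response factor. Myh6 and Myh7 encode the alpha and beta cardiac myosin heavy chains, Tnnt1 encodes slow skeletal troponin T and Fos is an immediate early transcription factor. Nfil3 encodes a repressor of circadian output genes and Fhl2 encodes a LIM domain protein of the sarcomere. The Fhl2 start used here lies inside the gene span, whose 5′ end is at position 43198343. No domain lay at that 5′ end, and the closest in list 1 began 27.990 kb from it.
Myh6, chr14:54966558-54966857, minus strand: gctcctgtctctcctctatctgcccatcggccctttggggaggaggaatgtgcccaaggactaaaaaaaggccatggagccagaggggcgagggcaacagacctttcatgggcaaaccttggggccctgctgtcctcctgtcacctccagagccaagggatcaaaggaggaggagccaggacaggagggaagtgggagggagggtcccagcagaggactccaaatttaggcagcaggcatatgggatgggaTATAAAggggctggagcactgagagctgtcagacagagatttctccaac
Myh7, chr14:54994577-54994876, minus strand: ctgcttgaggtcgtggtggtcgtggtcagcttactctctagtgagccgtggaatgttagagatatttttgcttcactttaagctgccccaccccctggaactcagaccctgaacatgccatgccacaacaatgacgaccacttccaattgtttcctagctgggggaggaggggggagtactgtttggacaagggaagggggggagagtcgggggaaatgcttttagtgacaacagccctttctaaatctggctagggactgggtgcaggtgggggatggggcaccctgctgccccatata
Tnnt1, chr7:4515926-4516225, minus strand: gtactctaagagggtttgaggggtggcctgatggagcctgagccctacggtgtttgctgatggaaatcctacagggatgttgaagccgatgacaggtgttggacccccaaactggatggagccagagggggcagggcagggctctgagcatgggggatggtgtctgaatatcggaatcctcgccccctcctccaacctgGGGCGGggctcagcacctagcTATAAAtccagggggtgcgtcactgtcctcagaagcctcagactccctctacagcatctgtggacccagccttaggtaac
Fos, chr12:85473640-85473939, plus strand: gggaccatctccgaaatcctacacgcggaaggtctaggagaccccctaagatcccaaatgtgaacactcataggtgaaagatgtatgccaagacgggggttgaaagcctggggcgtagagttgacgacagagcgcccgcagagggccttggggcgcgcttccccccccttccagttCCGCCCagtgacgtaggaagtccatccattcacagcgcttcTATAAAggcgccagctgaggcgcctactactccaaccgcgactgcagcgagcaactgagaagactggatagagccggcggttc
Nfil3, chr13:52980990-52981289, minus strand: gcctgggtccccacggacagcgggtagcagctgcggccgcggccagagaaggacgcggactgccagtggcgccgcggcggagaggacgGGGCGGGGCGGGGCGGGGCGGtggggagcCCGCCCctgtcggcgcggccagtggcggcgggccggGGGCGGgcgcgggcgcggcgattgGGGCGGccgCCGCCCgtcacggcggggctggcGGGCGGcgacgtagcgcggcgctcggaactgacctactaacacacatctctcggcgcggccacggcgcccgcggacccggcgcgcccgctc
Fhl2, chr1:43163912-43164211, minus strand: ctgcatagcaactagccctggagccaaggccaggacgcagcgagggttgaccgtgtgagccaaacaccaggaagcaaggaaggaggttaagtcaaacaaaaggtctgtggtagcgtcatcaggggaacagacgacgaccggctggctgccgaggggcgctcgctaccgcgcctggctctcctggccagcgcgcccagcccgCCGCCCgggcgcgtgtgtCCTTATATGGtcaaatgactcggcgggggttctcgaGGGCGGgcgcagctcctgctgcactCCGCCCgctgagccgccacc

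Mature microRNAs whose genes lay wholly inside a domain are shown with the seed, bases 2 to 8 of the microRNA that pair with target transcripts, in capitals. The table used here held mature sequences for 4 of the 9 microRNA genes under a domain, and 2 of those genes, both from heart muscle loci, are printed. Each of the 3 arms has its own seed.
mmu-miR-208a-3p, chr14:54949072-54949093, minus strand: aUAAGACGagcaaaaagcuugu
mmu-miR-208a-5p, chr14:54949107-54949128, minus strand: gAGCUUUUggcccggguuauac
mmu-miR-1a-1-5p, chr2:180389057-180389079, plus strand: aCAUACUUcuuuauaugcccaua

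The domains had a median width of 2533 bp in list 1, with a range from 2000 to 20063 bp, and of 2748 bp in list 2, with a range from 2006 to 27393 bp. All list 1 peaks on these chromosomes had a median width of 462 bp. The narrower peak of a pair was at least 3 kb wide in 108 domains, at least 5 kb in 21 and at least 10 kb in 4. The domains covered 1.08 Mb, or 8.49% of the 12.7 Mb under list 1 peaks. Near the limit, the narrowest members lay at Rbm38, at 2000 bp in list 1 and 2540 bp in list 2, and at Itga5, at 2001 and 5929 bp. Just outside it were a peak with no coding gene, at 1999 and 2130 bp, and a peak at Pfkm, at 1998 and 2019 bp. No pair met the width limit on chromosomes X and Y.

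Widths of paired peaks had a Spearman's rho of 0.77 between lists over the 351 domains, which share their summits in part. The summits lay within 10 bp of each other in 68.09% of domains and in 70.09% of the other shared peaks. Both edges lay within 10 bp in 10.54% of domains and 8.004% of the other shared peaks. The lists drew the borders differently over a number of loci: 5 list 2 peaks each spanned at least 2 domains, 11 domains in all, and 4 domains met a pair of wide list 2 peaks. A count of 351 is therefore a count of list 1 peaks and not of separate regions.

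**Figure D1:**
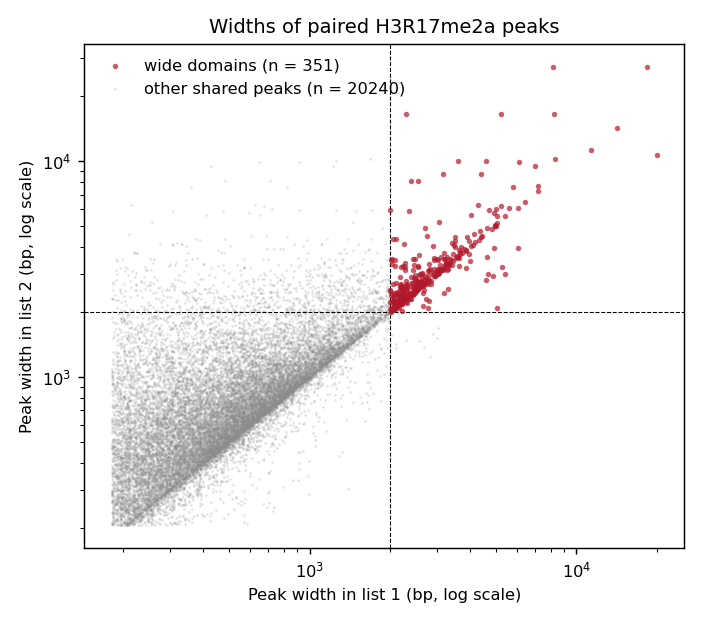
Width of each shared peak in list 1 (horizontal, bp, log scale) and of its list 2 partner (vertical, bp, log scale), with wide domains in red and the other shared peaks in grey. Dashed lines stand at 2000 bp, the 351 domains fill the upper right, and the widest domain of list 1 reaches 20063 bp.

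The number of reads at a summit could be worked back from its fold and p-value for all 351 domains in both lists. Domains had a median of 70 reads in list 1 and 72 reads in list 2, against 26 and 28 for a sample of 2000 of the other shared peaks. At the 134 domains whose summit lay on the same base in both lists, the reads differed by a median of 2. Independent Poisson counts of these means would differ with an SD of 12.02 reads. At these summits the samples differed by less than the sampling noise, and they were counted as 1 sample, so no replicate error can be given. Where the paired peaks had different summits the reads could differ more, as at Mt1 with 176 in list 1 and 32 in list 2. Whether both lists rest on the same reads was not tested further. Binomial intervals below are exact 95% intervals and cover counting error only, and duplicate reads could not be told from separate molecules.

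Among the shared peaks the highest folds lay outside the domains, at 44.1 in list 1 and 42.1 in list 2. The median fold was 5.47 in list 1 for domains, with a range from 1.67 to 26.8, and 4.98 for the other shared peaks. In list 2 it was 4.98 for domains, with a range from 1.81 to 24.6, and 4.19 for the other shared peaks. Across the domains width and fold had a Spearman's rho of 0.08 in each list, with both values read from the same peak and widths limited by the rule. Over all shared peaks it was 0.149 in list 1 and 0.267 in list 2. The domain of highest fold in list 1 lay inside Ank, a pyrophosphate transporter gene, at 26.8-fold in list 1 and 16.0-fold in list 2. It was 4625 and 4890 bp wide. In list 2 the highest domain lay 8230 bp upstream of Pnpla5, at 24.6-fold, against 7.78-fold in list 1.

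A wide domain overlapped the span of 276 of 20661 coding genes, 1.34%, whereas a shared peak of any width overlapped 9210, 44.6%. Of the genes with a shared peak, 3.00% had a wide domain. These genes had a median length of 27.0 kb, against 26.1 kb for genes under any shared peak and 17.5 kb for all coding genes, and a longer gene offers more room for an overlap. A domain overlapped no coding gene in 58 cases, 1 in 259, 2 in 31 and 3 in 3.

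Sarcomere genes held the highest count of any list of heart genes. A domain overlapped 20 of 42 sarcomere genes measured, 47.6%, with an exact interval from 32.0 to 63.6%, where 1.34% of all coding genes had one. A shared peak of any width lay over 35 of the 42. Their median length was 23.5 kb. The list spanned the thick filament with Myh6, Myh7, Myl2, Mybpc3, Ttn and Myom1, and the thin filament with Actc1, Tnni3 and Tpm1. It also held Z-disc and LIM domain genes such as Actn2, Ldb3, Fhl2, Csrp3, Nrap, Tcap and Xirp1, and the actin crosslinker Flnc. Shared peaks but no domain lay over Ankrd1, Myl3, Myl4, Myom2 and Nebl among others. With the width limit raised to 3 kb the count was 13 of 42, and with both lists held to their upper 50% by fold it was 15. The share of all coding genes was then 0.436% at 3 kb and 0.731% in the upper 50% by fold.

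Myh6, the main adult cardiac myosin motor in the mouse, was covered over 92.8% of its 26097 bp by 4 list 1 domains. Covered shares of genes, here and below, count list 1 domains only. The last of them, which also held Cmtm5 and reached Il25, was 20063 bp wide in list 1 and 10643 bp in list 2, with folds of 8.97 and 2.97. The domain at the Myh6 start was 3604 and 3581 bp wide, with folds of 4.77 and 2.52. Both lists covered the gene from its promoter past its end, and list 2 left gaps where list 1 did not. Myh7, the fetal and slow muscle myosin, had domains of 4316 and 3957 bp in list 1, against 4296 and 4277 bp in list 2, and 18.5% of the gene was covered.

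Myl2, the ventricular regulatory light chain, had 4 domains over 64.6% of its span. The domain at its start was 2617 bp in list 1 and 2791 bp in list 2, with folds of 11.4 and 7.56. Farther into the gene, list 1 domains of 4584 and 3585 bp met a single list 2 peak of 10035 bp. Mybpc3, myosin-binding protein C, had a domain of 2223 bp in list 1 and 2558 bp in list 2 at its start, another of 2565 and 2591 bp inside it, and a last one of 5020 and 5555 bp over its 3′ end and into Madd. Titin, the molecular spring of the sarcomere, had 128 shared peaks along 278578 bp, but 3 domains covered 2.26% of it, and a further domain began 912 bp past its 3′ end.

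Fhl2 had 5 domains, the widest at 6434 bp in list 1 and 6444 bp in list 2 with folds of 7.17 and 5.39. Together they covered 27.1% of the gene. Ldb3, a Z-disc PDZ and LIM protein also known as Cypher, had 4 domains over 26.3% of its span, none of them at its start. The widest was 6110 bp in list 1 and 9962 bp in list 2, and its centre lay 19062 bp downstream of the start. Actn2, alpha-actinin of the Z-disc, had a domain of 2147 and 2192 bp at its start and one of 4988 and 4982 bp whose centre lay 19288 bp downstream of it. Rbm20, the splicing factor that acts on titin transcripts, also had 5 domains, over 6.3% of its 206095 bp.

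**Figure D2:**
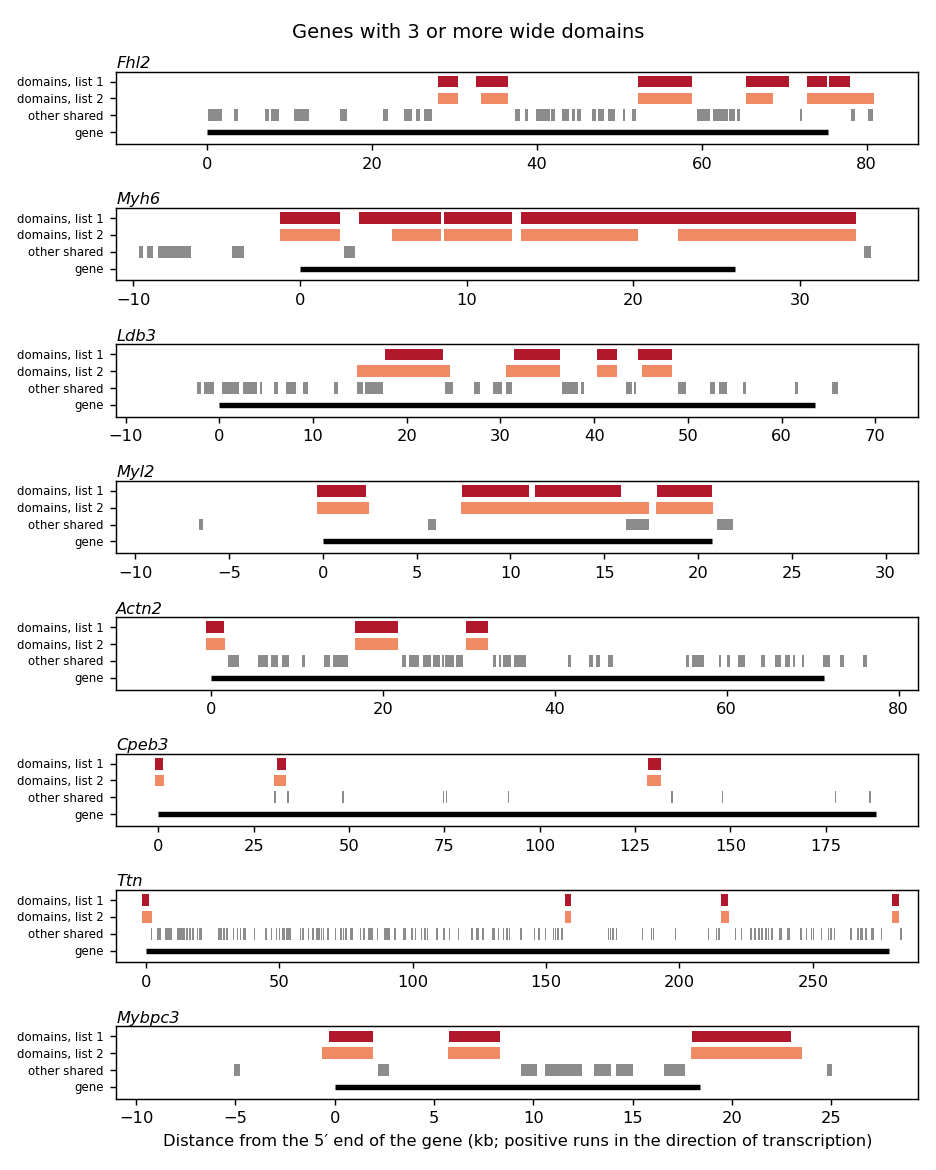
Domains of list 1 (red) and list 2 (orange), the other shared peaks (grey) and the gene span (black) for the 8 coding genes with a known strand and 3 or more domains, plotted as distance in kb from the 5′ end of the span. Domains of list 1 fill nearly all of Myh6 and cover 64.6% of Myl2, whereas in Ttn 3 list 1 domains cover 2.26% of a gene with 128 shared peaks.

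Tnni3, cardiac troponin I, had a domain of 3108 bp in list 1 and 3131 bp in list 2 at its start. Tnnt1, slow skeletal troponin T, whose promoter is printed above, had one of 4264 and 6254 bp with folds of 16.0 and 8.73. The domain at Actc1, cardiac alpha-actin, lay at the 3′ end of the gene, at 3173 and 3156 bp with folds of 15.5 and 10.1. The domain nearest Tnnt2, cardiac troponin T, lay outside the gene, 2060 bp past its 3′ end, and was 3576 and 3617 bp wide. Of 14 natriuretic peptide and fetal genes 3 had a domain, namely Myh7, Tnnt1 and Actg1, and 6 had a shared peak. Their share was 21.4%, with an interval from 4.66 to 50.8%, against 1.34% of all coding genes. Myh7 is also held by the sarcomere list.

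Among calcium handling genes, 5 of 26 had a domain, 19.2%, with an interval from 6.555 to 39.35%, and 22 had a shared peak. The counts of this paragraph stand beside the 1.34% of all coding genes. Atp2a2, the sarcoplasmic reticulum calcium pump SERCA2, had 5 domains, the widest at 7167 bp in list 1 and 7684 bp in list 2, and its strand was not in the table. Ryr2, the calcium release channel, had 1 domain of 2043 and 2077 bp inside it, and another lay 23935 bp upstream of its 5′ end with folds of 11.8 and 12.4. Casq2, which stores calcium, Jph2, which holds the junction between membranes together, and Srl, sarcalumenin, also had domains. Of 33 ion channel and conduction genes 3 had a domain, 9.09%, with an interval from 1.915 to 24.33%. They were Cacna1c, the L-type calcium channel, Kcne1, a potassium channel subunit, and Kcnj11, the pore of the ATP-sensitive potassium channel. Of 28 genes of the intercalated disc and costamere 4 had one, 14.3%, with an interval from 4.034 to 32.67%. They were Cdh2, Dag1, Des and Dsp, while 27 of the list had a shared peak.

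Energy genes were read against the same 1.34% of all coding genes. No domain lay over the 53 listed genes of the respiratory chain and the tricarboxylic acid cycle, 51 of which had a shared peak. Atp5j, Cox14 and Cox20, named for ATP synthase and cytochrome oxidase, were not on the list, and a domain overlapped each of them. A count of 0 allows up to 5.66% by the rule of 3 counts, so this count does not stand apart from all coding genes. From list 2 alone the count was 4, where 2.79% of all coding genes had a peak of at least 2000 bp. Of 36 fatty acid uptake and oxidation genes 6 had a domain, namely Fabp3, which carries fatty acids in the cytosol, Plin4, Pdk4, Pnpla2, Slc27a1 and Acaa2. Of 25 glucose and glycolysis genes 4 had one, namely Gapdh, Eno3, Pgam2 and Gys1. Creatine kinase Ckm, the oxygen carrier Mb and the purine cycle enzyme Adssl1 made 3 of 9 energy transfer genes. The Mb domain was 8300 bp in list 1 and 10289 bp in list 2, with folds of 8.55 and 4.93. Slc25a4, the adenine nucleotide carrier of heart mitochondria, had a shared peak in its span, and a domain of 5800 and 7579 bp began 1865 bp past its 3′ end.

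Regulators of metabolism included 7 genes with a domain out of 35, 20%, with an interval from 8.441 to 36.94%, against 1.34% of all coding genes. Ppargc1b, a coactivator of mitochondrial genes, had a domain of 3318 bp in both lists and another of 2512 and 2514 bp. Its paralogue Ppargc1a, also known as PGC-1 alpha, had a block at and past its 3′ end, where a single list 2 peak of 16610 bp met list 1 domains of 8220, 5208 and 2292 bp with folds of 7.80, 12.9 and 18.2. The block spanned 16.3 kb, of which 96.2% was under list 1 domains. Nr4a1, an orphan nuclear receptor, Perm1, Nr3c1, Gabpa and Prkaa2 were the other members. Of 36 cardiac transcription factor genes 5 had a domain, 13.9%, with an interval from 4.668 to 29.5%, against the same 1.34%. They were Gata6, Hand2, Irx3, Foxo3 and Klf13, and 31 of the list had a shared peak. Gata4 had a shared peak in its span, and its nearest domain outside it lay 45624 bp away.

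Genes of acute responses were the other large set. Of 30 immediate early and stress genes 12 had a domain, 40.0%, with an interval from 22.7 to 59.4%, against 1.34% of all coding genes. The median length of the list was 3.29 kb. The count was 5 at a width of 3 kb, and 1 where both lists were held to their upper 50% by fold. Most of these genes therefore had their domain in the lower 50% by fold of at least 1 list. All coding genes stood at 0.436% at 3 kb and 0.731% in the upper 50% by fold. The 12 genes were Fos, Fosl2, Jun, Junb, Atf3, Egr1, Btg2, Klf9, Gadd45b, Gadd45g, Mt1 and Txnip. The Fos domain was 3537 bp wide in list 1 and 3546 bp in list 2, with 184 and 183 reads at the summit. The domain of Txnip, a glucose-responsive inhibitor of thioredoxin, was 5577 and 6048 bp wide and lay at its 3′ end. Nfil3, Dbp and Nr1d1, which act in the output or a feedback arm of the circadian clock, had a domain in a list of 19 clock genes. Their share was 15.8%, with an interval from 3.383 to 39.58%.

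Heat shock and protein quality genes had a domain at 11 of 30 members, 36.7%, with an interval from 19.9 to 56.1%, against 1.34% of all coding genes. All 30 had a shared peak. The count of 11 became 5 at a width of 3 kb and 2 in the upper 50% by fold of both lists. All coding genes stood at 0.436 and 0.731% under these settings. A domain of 7182 bp in list 1 and 7256 bp in list 2 overlapped the neighbouring small heat shock genes Cryab and Hspb2. Cryab is also held by the sarcomere list. The Hspb7 domain was 5413 and 5580 bp wide and lay at its 3′ end, and the Bag3 domain, at the cochaperone that works with small heat shock proteins, was 4018 and 5661 bp wide. Hspb1, Hspb6, Hspa8, Hsp90ab1, Unc45b and Fbxo40 were among the other members.

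Markers of other cell types were counted beside the labelled tissue. No domain lay over 23 fibroblast and matrix genes, 20 endothelial, 20 immune, 19 neuronal, 20 hepatic or 23 skeletal muscle genes. A count of 0 allows up to 13.0% of the fibroblast genes by the rule of 3 counts, and 1.34% of all coding genes had a domain, so these zeros do not set the lists apart from all coding genes. A shared peak of any width lay over 3 of the fibroblast genes, 6 of the endothelial genes and 1 of the immune genes. It lay over 3 of the neuronal, 2 of the hepatic and 1 of the skeletal muscle genes. Among all coding genes 44.6% had a shared peak. The 1 member of the mural list with a domain, Des, is also a muscle gene and is held by the intercalated disc list.

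Apart from the olfactory receptor genes, the gene families of this paragraph had counts near the 1.34% of all coding genes, or too few members to be read against it. No domain lay over 95 ribosomal protein genes, where 3 counts would be 3.16%, and 81 had a shared peak. Of 391 Zfp zinc finger genes 3 had a domain and 224 a shared peak. Of 55 histone genes 1 had a domain, H3f3a, which encodes the replacement histone H3.3. Of 17 arginine methylation genes 1 had one, Btg2, a regulator of Prmt1 that the stress list also holds, while Carm1 had a shared peak but no domain. No domain lay over 39 Hox genes. The 1104 olfactory receptor genes had no domain, where 3 counts would be 0.272%, below the 1.34%. They also had no shared peak of any width, and their median length was 0.95 kb.

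**Figure D3:**
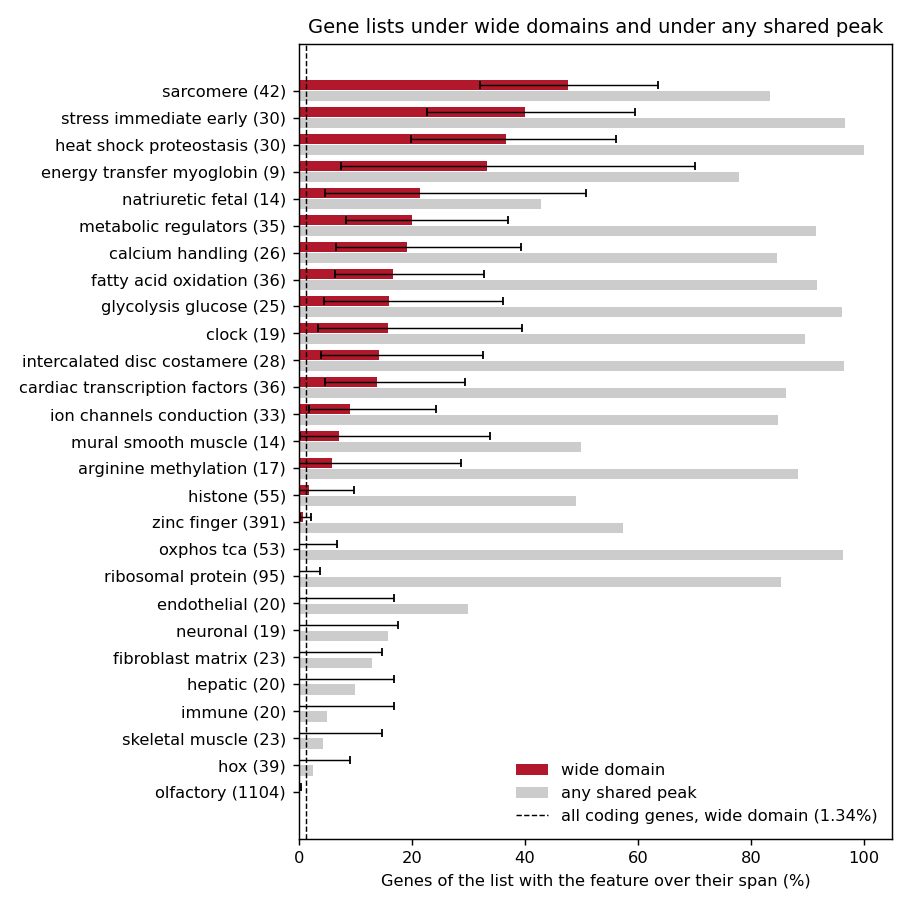
Percent of the coding genes of each list whose span was overlapped by a wide domain (red, with exact 95% binomial intervals) or by any shared peak (grey), with the number of genes measured in brackets and the 1.34% of all coding genes as a dashed line. Sarcomere genes reach 47.6%. The listed respiratory chain and ribosomal protein genes have shared peaks at 51 of 53 and 81 of 95 members and no domain.

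A gene was covered over at least 90% of its span in 13 cases. Besides Myh6 these were short genes, among them Hspb1, Junb, Gadd45b, Gadd45g, Mt1, Pgam2, Kcnj11 and Tcap, the titin cap protein, at 1143 to 3830 bp. At least 2 domains lay over 34 genes.

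A window of 1000 bp on both sides of a coding gene end was overlapped by 177 domains, 50.43%, with an interval from 45.07 to 55.78%. The figure for the other shared peaks was 38.79%, and for all shared peaks it was 39.0%. A wide peak reaches a window more easily, and by midpoint 32.48% of domains lay in one, against 36.65% of the other shared peaks, so the higher share held by any overlap only. With both lists held to their upper 50% by fold, the shares by any overlap were 40.91% of domains and 23.8% of the other shared peaks. In list 2 alone they were 38.95% of peaks of at least 2000 bp and 26.66% of narrower peaks. Strand was known only for genes in the promoter table, 16456 of 20661, and for none on chromosome 18, so some ends could not be assigned to a start or a 3′ end.

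Placed by midpoint, 27.07% of domains lay within 1000 bp of a coding start, against 32.74% of the other shared peaks, and the intervals were 22.49 to 32.04% and 32.09 to 33.39%. At known 3′ ends the figures were 4.558% of domains, 16 of 351, and 1.714% of the other shared peaks, with intervals from 2.628 to 7.297% and from 1.54 to 1.903%. Placed by summit, which does not grow with width, they were 3.704 and 1.808%, with intervals from 1.987 to 6.25% and from 1.629 to 2.001%. Elsewhere inside coding genes the midpoint shares were 42.17 and 39.85%, and between genes 13.96 and 14.27%. At 3′ ends the intervals did not overlap by midpoint, and by summit they did. At starts the shares by summit were 28.49% of domains and 32.7% of the other shared peaks. Their intervals, 23.82 to 33.52% and 32.06 to 33.35%, overlapped. By any overlap the start shares had the reverse order, at 35.61 and 33.74%, so the lower share of domains at starts depended on the placement.

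**Figure D4:**
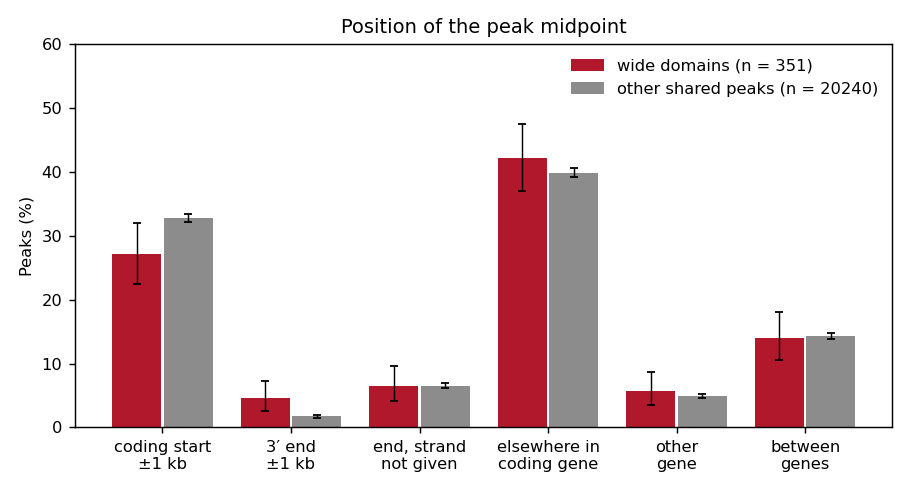
Percent of wide domains (red, n = 351) and other shared peaks (grey, n = 20240) whose midpoint fell in each class, with exact 95% binomial intervals. Domains sit at 27.07% against 32.74% near coding starts and at 4.558% against 1.714% near 3′ ends.

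The domains placed at 3′ ends lay at Wasl, Txnip, Hspb7, Actc1, Csrp3, Gapdh, Junb and Mt1, among others. Junb and Mt1, at 1840 and 1445 bp, were covered whole in list 1. Their domains therefore held the start of the gene as well as its 3′ end. The Wasl domain, at a regulator of actin branching, was the second widest by the narrower peak of each pair, at 14196 bp in list 1 and 14239 bp in list 2 with folds of 6.75 and 5.17. It overlapped the 3′ end of Wasl on the side of Lmod2, a leiomodin that sets thin filament length, which had its own domain of 3637 and 3569 bp inside the gene. Csrp3, the muscle LIM protein, had domains at both ends, of 2422 and 2427 bp at the start and of 2753 and 4501 bp at the 3′ end. The 16 domains at 3′ ends had a median width of 3170 bp in list 1 and 3780 bp in list 2, and the 95 at starts had 2436 and 2634 bp. Their median folds were 6.40 and 4.97 at 3′ ends, and 4.29 and 4.03 at starts.

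A coding start was covered by 118 domains, 33.62%, and by 25.38% of the other shared peaks. In the 107 domains with starts on 1 strand the peak reached a median of 809 bp upstream and 1726 bp downstream, against 213 and 331 bp in the other shared peaks. The longer reach was downstream in 70.09% of these domains and in 68.08% of the other shared peaks, so the skew into the gene had about the same frequency in both. The summit lay a median of 10 bp downstream of the start in domains and 7 bp upstream in the other shared peaks, on the scale of the peak itself a short distance. Both strands had a start under 9.322% of the domains that covered one and under 8.801% of the other shared peaks that did.

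Promoters under domains differed in their CpG content from promoters under other shared peaks. A start lay inside a domain in both lists for 126 coding genes and inside another shared peak for 5491. The ratio of CpG dinucleotides observed to those expected from base content was at least 0.6 in 66.7% of the 126, with an interval from 57.7 to 74.8%, in 86.2% of the 5491 and in 49.7% of all 16456 promoters. The median ratio was 0.772 in promoters under domains and 0.837 in those under other shared peaks. The ratio ran from 0.0405 for Cmtm5 to 1.28 for Hnrnpa2b1 among the 126. Muscle genes, picked after their values were seen, lay at both ends. The ratio was 0.0477 for Mybpc3, 0.0509 for Myl2, 0.0833 for Myh6, 0.226 for Ckm, 0.232 for Myh7, 0.236 for Tnni3 and 0.238 for Tnnt1, but 0.606 for Actn2, 0.827 for Fhl2 and 1.16 for Cacna1c. Of the other printed sequences, Fos had 0.775 and Nfil3 1.1.

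**Figure D5:**
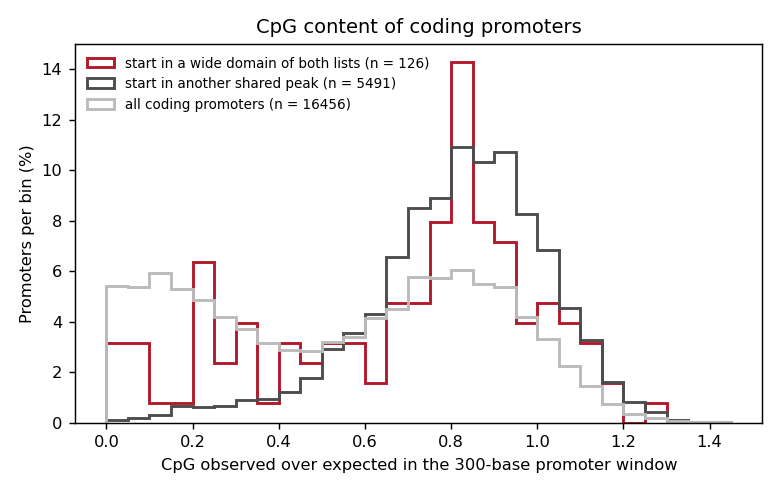
Distribution of the CpG ratio, observed over expected, in 300-base promoter windows whose start lay in a wide domain of both lists (red, n = 126), in another shared peak (dark grey, n = 5491) and in all coding promoters (light grey, n = 16456), as percent of promoters per bin of the ratio. The red line has a low group below 0.6 that the dark grey line holds in a smaller share, 66.7% against 86.2% lying at or above 0.6.

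Short motifs were searched on both strands of the same windows as a description. TATAAA was found in 7.94% of promoters under domains, 5.83% of those under other shared peaks and 13.5% of all. GGGCGG, the site of Sp1, was found in 66.7, 70.7 and 47.3%, and the E-box CACGTG in 12.7, 13.0 and 7.96%. AAGGTCA, the site of the estrogen-related receptors, was found in 2.38, 2.90 and 4.02%, and AGATAA, which factors of the Gata family bind, in 5.56, 4.72 and 9.87%. The MEF2 site, an A and T rich element that can overlap TATAAA or the CArG box, was in 9 promoters under domains, 7.14%, with an interval from 3.32 to 13.1%, in 1.58% of those under other shared peaks and in 2.78% of all. The 9 were Pgam2, Mybpc3, Fbxo40, Ttn, Casq2, Ndrg2, Jun, Rcor2 and Cdkn1b. The CArG box was in 5, 3.97%, with an interval from 1.30 to 9.02%, against 1.33 and 1.43%, and they were Fbxl22, Rnd3, Fhl2, Fermt2 and Actg1.

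Noncoding genes were a further feature of the domains, with the limit that a wider peak reaches more genes. A noncoding gene was overlapped by 77 domains, 21.94%, with an interval from 17.72 to 26.64%, against 13.48% of the other shared peaks and 13.6% of all shared peaks. By midpoint the shares were 14.25% of domains, with an interval from 10.76 to 18.35%, and 10.11% of the other shared peaks, with an interval from 9.697 to 10.53%. For long noncoding RNA (lncRNA) genes they were 20.8 and 12.38% by any overlap, and the start of a lncRNA was covered by 32 domains, 9.117%, against 3.572%. Of those 32 domains 17 also covered a coding start. Seen from the genes, 84 of 16359 noncoding genes, 0.513%, had a domain: 66 lncRNAs, 9 microRNAs, 4 transfer RNAs, 2 guide RNAs, 2 miscellaneous RNAs and 1 small cytoplasmic RNA. None of 1286 small nucleolar and 931 small nuclear RNA genes did.

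Neat1, the lncRNA that builds nuclear paraspeckles, had the widest domain by the narrower peak of each pair, while in list 1 the Myh6 domain was wider. It was covered over 98.1% of its 20773 bp by list 1 domains of 18422, 8183 and 2395 bp, and list 2 drew a single peak of 27393 bp over the first 2 of them. The folds were 7.32 in list 1 and 4.35 in list 2 for the widest. Its neighbour Malat1, a lncRNA of nuclear speckles, was covered over 2652 of its 6983 bp by a domain of 4936 bp in list 1 and 5082 bp in list 2, which also held the small RNA Mascrna that is cut from its 3′ end. With a further domain past Neat1, 97.3% of a stretch of 32.5 kb was under list 1 domains.

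Muscle microRNAs lay under domains in 6 of 31 genes of a list, 19.4%, with an interval from 7.452 to 37.47%. The share was 0.792% of all 1136 microRNA genes and 0.513% of all noncoding genes. These 6 are among the 9 microRNA genes under a domain. Mir1a-1hg, the host of miR-1 and miR-133 on chromosome 2, was covered over 76.9% of its 16199 bp by domains of 11290 and 6043 bp in list 1, against 11250 and 6054 bp in list 2. Mir1a-1, whose 5′ arm is printed above, lay at the border of the narrower one and Mir133a-2 inside the wider one, and both hairpins were covered whole. The second copy of this pair lies inside Mib1 on chromosome 18, where domains covered 42.8% of the host Mir133a-1hg, all of Mir1a-2, and 10 bp of Mir133a-1. These microRNAs are known to limit growth and proliferation of heart muscle. Mir208a, printed above, is encoded in an intron of Myh6 and lay whole under the domain of 20063 bp. Mir378a, encoded in Ppargc1b, lay whole under its domain of 3318 bp.

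Of 28 noncoding genes known in the heart 7 had a domain, 25%, with an interval from 10.69 to 44.87%, against 0.513% of all noncoding genes. They were Neat1, Malat1, Mhrt, Hand2os1, Mir1a-1hg, Mir133a-1hg and Mir1a-2. Mir1a-2 lies inside Mir133a-1hg and is also held by the muscle microRNA list, so the members are not all separate loci. Several lncRNAs overlapped or adjoined the myosin genes. Gm31251 had 3 domains over 43.1% of its 29743 bp, among them one of 6987 bp in list 1 and 9551 bp in list 2 that began 5841 bp upstream of Myh7, with folds of 10.4 and 8.57. Gm52092, which overlaps Myh6, was covered over 94.6%. Mhrt, a lncRNA known to be transcribed antisense to Myh7, was overlapped over 7.6% of its length by the domain at the Myh6 start. Hand2os1, next to the transcription factor gene Hand2, was overlapped over 4.65%, by the same domain as the start of Hand2. The counting of domains uses no strand, so the mark cannot be assigned to a coding gene or to its noncoding neighbour there. The 4 transfer RNA genes lay under 1 domain of 2507 bp in list 1 and 2525 bp in list 2 on chromosome 3.

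Outside coding genes lay 58 domains, with a median distance of 13.8 kb to the nearest coding gene, against 14.9 kb for 4315 other shared peaks outside genes. Within 10 kb of a gene lay 28 of them. Of the 25 with a known strand, 19 lay downstream of the 3′ end and 6 upstream of the 5′ end. The downstream share was 76.0% for domains, with an interval from 54.87 to 90.64%, and 48.53% for the other shared peaks, with an interval from 45.89 to 51.19%, and 3 of the 19 lie in 1 stretch at Neat1 past Frmd8. The downstream domains lay past Slc25a4, Tnnt2, Ttn, Fhl2, Atf3, Nmrk2, Ppargc1a, Vegfa, the gene of vascular endothelial growth factor A, and Tef, among others. The domain 121 bp past Fhl2 was 2543 bp wide in list 1 and belonged to a list 2 peak of 8140 bp that reached into the gene.

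Farther out, 3 domains lay over 100 kb from any coding gene. The farthest lay 140965 bp upstream of Irf2bp2, at 2083 bp in list 1 and 2219 bp in list 2 with folds of 9.50 and 6.57, and another lay 71929 bp upstream of the same gene. The others lay 109009 bp past Sec61b and 104837 bp past Vegfa. A domain of 3079 and 3162 bp lay 46740 bp upstream of Ankrd1, a stress-responsive sarcomere gene that had no domain in its span, with folds of 13.9 and 10.1. The domains between genes had median folds of 6.61 in list 1 and 5.87 in list 2, and those at coding starts had 4.29 and 4.03. The other shared peaks had the same order, with 5.73 and 4.82 between genes and 3.91 and 3.67 at starts.

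Domains lay close to each other in 36 groups separated by gaps of at most 10 kb, which held 87 domains, 24.79% of all. The widest group, of 4 domains, ran over 34.5 kb on chromosome 14 from Il25 and Cmtm5 across Myh6 into Mhrt, and 94.5% of it was under list 1 domains. The Myh7 group, of 3 domains over 17.8 kb, lay on the same chromosome, and 85.8% of it was covered. Other groups lay at Neat1, Ldb3, Fhl2, Myl2, Ppargc1a, Txnip, Mybpc3 and Atp2a2. Chromosome 19 had the highest share of its shared peaks in domains, 3.82%, or 32 of 838, and chromosome 11 the lowest, 0.95%, or 15 of 1579.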

How the data were processed

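H3R17me2a ChIP-seq was deposited for 2 samples of 1 group as 1 peak list each, in the 10-column narrow peak layout without a header. Per the submitters' processing notes FastQC, Bowtie2 and the mm10 build were used. Names for the peak caller, its control and its filters were not given in the sources used here. The deposited score, the deposited fold, a linear ratio of signal to background at the summit, and the deposited −log10 p-values and −log10 q-values are the authors' own, and were used only to describe or filter peaks.

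Genes came from RefSeq tables for GRCm38.p6, whose primary chromosomes share their coordinates with mm10, and all positions count from 1. Peaks overlapped when they shared at least 1 bp. Placement went in the order start, 3′ end, end of unknown strand, inside a coding gene, other gene, between genes. The reads at a summit were recovered as the whole number whose Poisson tail gives the deposited p-value within 0.001 on the −log10 scale, with a factor of 0.618 on list 2 reads found by a scan, and all 396 simulated peaks gave back their reads. The simulation held fewer reads per peak than the highest domain, at 641 in list 1, and scanned a narrower range of factors. The factor of 0.618 was refined on a sample of the domains themselves. Recovery in the simulation therefore does not cover the full range of the data. Total reads per sample are unknown. The named genes were those under the 25 widest domains, members of the gene lists (up to 6 per list in detail), the widest lncRNAs, all small RNAs, the farthest domains and those nearest the width limit, and genes singled out for their CpG content were named after their values were seen. Some genes that the rule selects are left out of the text. Domains, lists and comparisons were chosen with earlier results of these data known. Nothing was tested between groups, since there is 1 group. Alternatives covered the width, the window, the overlap, fold, p and q limits, the placement rule and each list alone. Python 3.11.15, pandas 2.3.3, numpy 2.4.6 and scipy 1.17.1 were used.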

Additional observations from a re-analysis of the deposited data

How the results depend on the processing

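No paired analysis was possible because the series has 1 group. Besides 351 domains, the rule gave 873 at 1500 bp, 108 at 3000 bp and 198 in the upper 50% by fold, and 365 to 842 from 1 list alone. The 276 coding genes became 622 at 1500 bp, 90 at 3000 bp, 151 in the upper 50% by fold and 288 to 577 from 1 list alone. The share at gene ends, 50.43%, became 40.91% in the upper 50% by fold, 57.26% with a window of 3000 bp, 41.88% with none, 32.48% by midpoint and 38.95 to 51.23% from 1 list alone. The share over noncoding genes, 21.94%, became 31.48% at 3000 bp, 16.24% where 50% of the gene or domain had to overlap, and 21.5 to 22.47% from 1 list alone. The other 26 values under alternatives lay near the reported ones: shares within the reported interval and counts within 1.5 times. A q of at most 0.05 in both lists, chosen after seeing the data, left 348 domains. The cause of these moves was not tested beyond what each rule itself adds or removes.

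The depth of the samples is unknown, both lists count as 1 sample, and widths depend on how the unnamed peak caller joined neighbouring peaks. The gene table lacks exons, and strand for genes outside the promoter table.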

Other observations

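Of the list 2 peaks of at least 2000 bp, 493 belonged to no domain, with a median width of 2320 bp. No list 1 peak overlapped 8 of them, 1 peak overlapped 190 and at least 2 peaks overlapped 295. The widest without any list 1 peak lay at AY036118 on chromosome 17, at 5692 bp and a fold of 1.65, and in Sik3, a kinase gene of the salt-inducible family, at 4647 bp and a fold of 7.89. A list 2 peak in Mypn, the gene of the Z-disc protein myopalladin, was 4053 bp wide with a fold of 22.9, and list 1 held 2 peaks there, the wider at 945 bp. Among list 1 peaks of at least 2000 bp, 14 belonged to no domain. The widest lay at Rrad, a small GTPase gene, at 3038 bp, and in Ttn, at 3010 bp.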
